A study of Mus musculus with 6 samples.

Results

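The levels of 10 genes of transforming growth factor β (TGF-β) and activin signaling were compared between neomycin-treated and control mouse cochlear explants. The genes were the ligands Tgfb1, Tgfb2 and Tgfb3, the receptors Tgfbr1, Tgfbr2 and Tgfbr3, the activin subunit gene Inhba, the latency gene Ltbp1, the inhibitor Smad7 and the secreted target Tgfbi. They were taken by gene symbol and make up 10 of the 24421 symbols counted. All 10 passed the filter on low counts and were among the 15988 genes tested.

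RNA was sequenced from explants of the cochlea, the hearing organ of the inner ear, taken from mice of the labelled type WT at postnatal day 2, with the tectorial membrane, the modiolus and the strial anlage dissected away. Explants were held in culture for 12 h before neomycin, an aminoglycoside antibiotic that is toxic to hair cells (HCs), was given to the treated group at 1 mM for 6 h, and EdU at 10 μM was present over the next 5 days. Control explants are read as not having received neomycin, although the labels repeat the same 1 mM protocol in every one of the 6 samples. Each group had 3 samples and each sample pooled 6 to 8 cochleae, and because nothing more says that they were separate cultures or litters, the p-values measure the spread between these samples only.

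TGF-β ligands are secreted in a latent form bound to latent TGF-β-binding proteins and stored in the matrix, from which integrins and other proteins release them. The active ligand is bound by the type II receptor, which phosphorylates the type I receptor, and the receptor complex phosphorylates SMAD proteins that enter the nucleus and alter transcription. Activins are dimers of inhibin β subunits that signal to the same SMADs through receptors of their own and are bound and blocked by follistatin, and in the developing cochlea activin and follistatin are known for opposing effects on the timing of HC differentiation.

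Total counts ran from 50471116 to 66068108 per sample. Levels are given as CPM (counts scaled to a common library size) with TMM scaling, and as CPM per kb of exon where genes are compared with each other. As a check of the labels, 8 of 10 HC markers were called lower, by the rule given below, with a summed level of 679 to 789 CPM in control and 214 to 270.0 CPM in neomycin samples. Summed supporting cell markers overlapped, at 1302 to 1357 CPM in control and 1301 to 1452 CPM in neomycin samples, with 2 of 9 called lower. The largest part of this sum was Gjb2, at a mean of 554 CPM in control and 642 CPM in neomycin samples. By adjusted p, 4 of the 9 fell, among them Prox1 (log2 fold change -1.46) and Fgfr3 (-0.66), and 1 rose. The supporting cell sum thus does not show that these markers were unchanged. Explants are mixed tissue, so fewer cells of a type and less RNA per cell cannot be told apart in any value below.

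The largest change among the 10 genes was in Inhba, which fell 2.43-fold after neomycin. Smad7, the feedback inhibitor of the pathway, fell 1.49-fold. The 3 TGF-β ligands, the 3 TGF-β receptors, Ltbp1 and Tgfbi did not pass the test. A gene counted as called where edgeR's quasi-likelihood test gave an adjusted p-value under 0.05 (Benjamini-Hochberg, over all genes tested) and the fold change was over 1.5. By this rule 1 of the 10 genes, Inhba, was called, and Smad7 at 1.49 sat just under the fold threshold. Across all genes tested 8.84% were called, 6.6% as lower and 2.24% as higher, so a count of 1 in 10 is near the background. By adjusted p alone, 2 of the 10 passed, against 29% of all genes. The 2 groups did not overlap for 5 of the 10 genes, all lower after neomycin, against 43.5% of all genes without overlap (22.5% lower and 21% higher). The median log2 fold change of the 10 was -0.09, and that of all genes tested was -0.00.

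**Figure D1:**
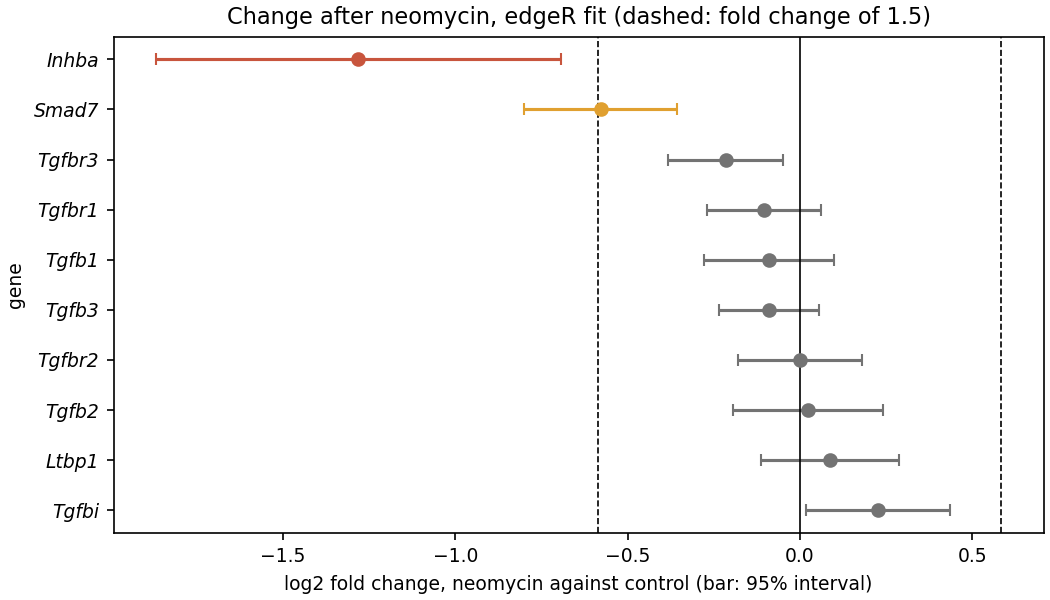
Log2 fold change of each of the 10 genes after neomycin against control (x axis) from the edgeR fit on 3 control and 3 neomycin samples, with 95% intervals as bars and dashed lines at a fold change of 1.5. Inhba at -1.28 lies wholly beyond the dashed line, Smad7 at -0.58 lies just inside it, and the other genes lie between -0.22 and 0.23.

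The 10 genes differed widely in level. As mean CPM per kb of exon over the 6 samples, Tgfbi was highest at 99.7, followed by Tgfb2 at 48.4, Tgfb3 at 37.0, Tgfbr1 at 12.0, Tgfbr3 at 8.53, Ltbp1 at 7.48, Tgfbr2 at 7.18, Smad7 at 7.005, Tgfb1 at 3.82 and Inhba at 0.546. Over the 6 samples, the ranges of Tgfbr3 and Ltbp1, of Ltbp1 and Tgfbr2, and of Tgfbr2 and Smad7 overlapped, while the other neighbours in this order did not. Of the tested genes with an exon length, 97% had a lower level per kb than Tgfbi, 93.3% a lower level than Tgfb2, and 17% a lower level than Inhba. Inhba was thus a low gene in these explants, counted with 479, 252 and 172 reads in control replicates 1, 2 and 3 and with 114, 134 and 91 reads in neomycin replicates 1, 2 and 3.

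**Figure D2:**
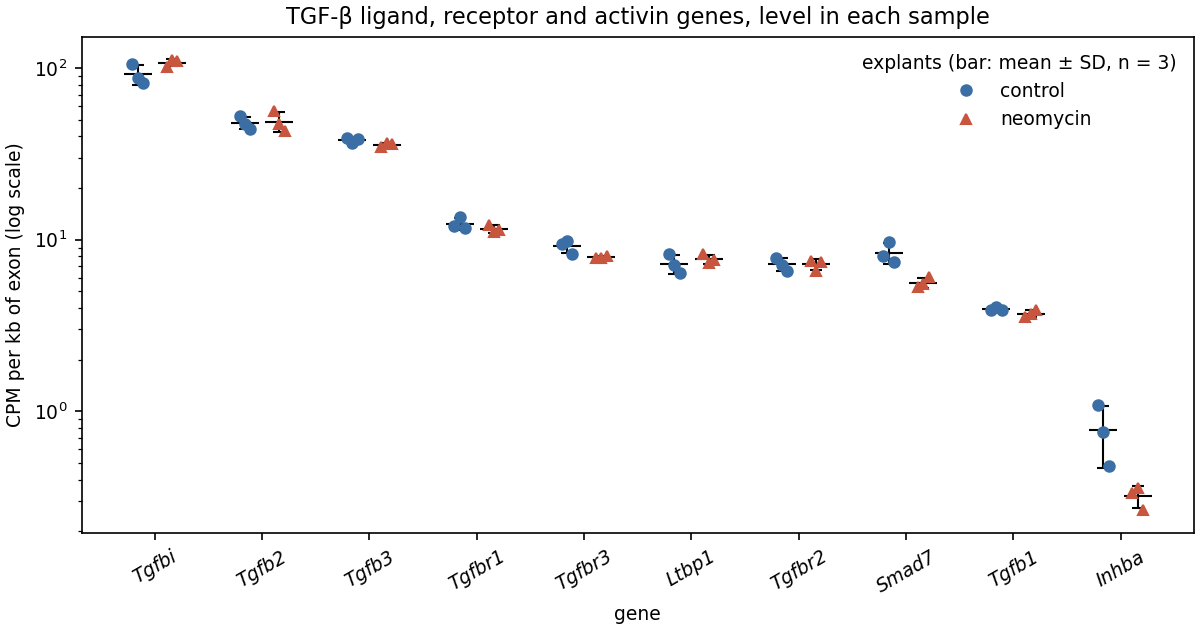
Level of each of the 10 genes in each sample as CPM per kb of exon (y axis, log scale), ordered by mean level, with control samples as circles, neomycin samples as triangles and bars for mean ± SD (n = 3 per group). The groups lie apart for Inhba and Smad7 and, by less, for Tgfb1, Tgfb3 and Tgfbr3, against 43.5% of all genes without overlap. The samples of Tgfb2, Tgfbr1, Tgfbr2, Ltbp1 and Tgfbi are mixed.

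Among the ligands, Tgfb2 was the most abundant transcript and its level did not pass the test. Tgfb2 (chr1:186622792-186705989, minus strand, GRCm38, the same assembly as mm10) was at 303, 273 and 257 CPM in control and at 324, 274 and 250.4 CPM in neomycin samples. The groups overlapped, and the log2 fold change was 0.02 (SE 0.10, 95% interval -0.19 to 0.24, adjusted p = 0.881 by edgeR). Its sign turned under library totals (-0.04) and when control replicate 3 (-0.02) or neomycin replicate 1 (-0.08) was left out. Tgfb3 (chr12:86056745-86079041, minus strand) was at 132, 125 and 130.4 CPM in control and at 118, 124 and 122 CPM in neomycin samples. All 3 neomycin samples lay below all 3 control samples, but the difference was small (log2 fold change -0.09, SE 0.07, 95% interval -0.23 to 0.06, edgeR adjusted p = 0.344). Tgfb1 (chr7:25687002-25705077, plus strand), the ligand best known from immune and fibrotic tissue, was lowest of the ligands. It was at 19.6, 20.3 and 19.7 CPM in control and at 17.9, 18.6 and 19.5 CPM in neomycin samples, again without overlap and with a log2 fold change of -0.09 (SE 0.09, 95% interval -0.28 to 0.10, edgeR adjusted p = 0.467).

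The makeup of the ligand pool was compared as the share of each ligand in their summed level per kb. Tgfb2 made up 53.2% ± 1.91 (SD, n = 3) of the pool in control and 55.1% ± 3.78 (n = 3) in neomycin samples, a difference of 1.83 percentage points (exact permutation test, two-sided, p = 0.6). Tgfb3 made up 42.4% and 40.7% (exact permutation p = 0.5), and Tgfb1 4.38% and 4.21% (exact permutation p = 0.7). The summed level was 90.1 ± 4.59 CPM per kb in control and 88.4 ± 5.59 in neomycin samples (n = 3 each, exact permutation p = 0.6). With 20 ways to assign 3 of 6 samples, these tests cannot give a p below 0.1. Reads of genes that overlap these exons on the opposite strand (Gm29491 at Tgfb2, Gm37804 and Gm48008 at Tgfb3) cannot be told apart without the strand setting of the counting, and Gm43422 overlaps Tgfbr3 on the same strand.

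Of the receptors, Tgfbr3, the coreceptor betaglycan that presents ligand and also binds inhibin, came nearest to the threshold. Tgfbr3 (chr5:107106570-107289629, minus strand) was at 61.8, 64.1 and 54.1 CPM in control and at 51.2, 51.0 and 52.7 CPM in neomycin samples. All 3 neomycin samples lay below the lowest control sample, with a log2 fold change of -0.22 (SE 0.08, 95% interval -0.38 to -0.05, edgeR adjusted p = 0.0533). Its adjusted p was 0.0275 under library totals, 0.0483 with a filter of at least 10 counts in every sample and 0.0114 without control replicate 3. But it was 0.241 once a trend on exon length was removed, and 0.102 to 0.212 when any other sample was left out. Tgfbr1 (chr4:47353222-47414931, plus strand), the type I receptor, was at 78.3, 88.2 and 76.7 CPM in control and at 79.4, 72.0 and 74.7 CPM in neomycin samples, overlapping groups with a log2 fold change of -0.10 (SE 0.08, edgeR adjusted p = 0.326). Tgfbr2 (chr9:116084293-116175360, minus strand), the type II receptor, had the smallest difference, with 64.0, 58.4 and 53.9 CPM in control and 61.8, 54.0 and 60.6 CPM in neomycin samples. Both groups had a mean of 58.8 CPM (SD 5.06 and 4.201, n = 3 each), and the 95% interval of the log2 fold change ran from -0.18 to 0.18. The level ratio of Tgfbr2 to Tgfbr1 per kb was 0.581 in control and 0.623 in neomycin samples (difference of 0.11 on the log2 scale, exact permutation test, two-sided, p = 0.4).

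Inhba encodes the inhibin βA subunit, whose dimer is activin A. Inhba (chr13:16011851-16031621, plus strand) was at 6.94, 4.83 and 3.06 CPM in control and at 2.15, 2.27 and 1.69 CPM in neomycin samples. Control replicate 1 was more than 2 times control replicate 3, yet every control sample lay above every neomycin sample. The mean was 4.94 ± 1.94 CPM in control and 2.04 ± 0.304 CPM in neomycin samples (SD, n = 3 each), a log2 fold change of -1.28 (SE 0.27, 95% interval -1.87 to -0.69, edgeR adjusted p = 0.00483). Only 2.65% of all genes tested had a lower log2 fold change. The size of the change moved with the control samples used, and the log2 fold change was -0.94 (adjusted p = 0.02) without control replicate 1 and -1.52 (adjusted p = 0.000736) without control replicate 3.

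Inhbb, which encodes the inhibin βB subunit of activin B, fell by nearly the same amount. Inhbb (chr1:119415465-119422248, minus strand) was at 3.39, 6.69 and 6.24 CPM in control and at 2.01, 2.68 and 1.97 CPM in neomycin samples, with a log2 fold change of -1.28 (SE 0.25, edgeR adjusted p = 0.00332). Its control samples were ordered differently from those of Inhba, with replicate 1 lowest for Inhbb and highest for Inhba. The summed level of Inhba and Inhbb was at 1.88, 2.33 and 1.95 CPM per kb in control and 0.809, 0.985 and 0.729 CPM per kb in neomycin samples. Inha, the α subunit that turns β subunits into inhibins, did not pass the test (log2 fold change 0.12, edgeR adjusted p = 0.362).

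Since both activin β subunit genes fell, the 250 bases before the annotated start of each are shown (RefSeq, GRCm38.p6, 5′ to 3′ on the strand of the gene), at chr13:16011601-16011850 on the plus strand for Inhba and at chr1:119422249-119422498 on the minus strand for Inhbb. Capitals mark the only match to 5 motifs searched on both strands.
Inhba: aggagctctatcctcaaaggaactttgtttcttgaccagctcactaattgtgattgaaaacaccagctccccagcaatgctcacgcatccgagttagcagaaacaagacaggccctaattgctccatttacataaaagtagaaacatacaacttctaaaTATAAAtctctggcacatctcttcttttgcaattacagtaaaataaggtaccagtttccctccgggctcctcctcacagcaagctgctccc
Inhbb: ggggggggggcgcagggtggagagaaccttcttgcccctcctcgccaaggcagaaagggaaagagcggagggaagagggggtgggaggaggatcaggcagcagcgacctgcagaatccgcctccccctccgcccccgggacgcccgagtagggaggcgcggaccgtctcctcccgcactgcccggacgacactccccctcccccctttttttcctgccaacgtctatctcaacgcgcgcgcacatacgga
The 2 stretches differed in base composition, with 43.2% G and C in Inhba and 68% in Inhbb. The motifs were the SMAD palindrome GTCTAGAC, the AP-1 site TGANTCA, the cAMP response element TGACGTCA, the TEAD site GGAATG and the TATA box TATAAA, and no stretch of these windows matched more than 1 of them. The match in Inhba was TATAAA, 91 bases before the start. This motif was found in 12.4% of the 32851 windows of the same length that were held, which did not cover every gene. The shares were 0.167% for GTCTAGAC, 6.75% for TGANTCA, 1.55% for TGACGTCA and 12.6% for GGAATG. A match describes the letters in the window and no more. A window was held for 13 of the 22 genes looked up, and among the others Tgfb2 had TATAAA 31 bases, Fstl3 the same motif on the opposite strand 29 bases and Ltbp1 TGACGTCA 73 bases before an annotated start.

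The receptors and binding proteins of activin were read beside its subunits. Acvr1b, the type I receptor for activin, was at 37.9, 34.3 and 33.0 CPM in control and at 24.7, 22.4 and 19.0 CPM in neomycin samples, and it fell 1.59-fold (log2 fold change -0.67, SE 0.10, edgeR adjusted p = 0.000788). Acvr1c, a related type I receptor, was near the lower end of detection at 1.24 ± 0.105 CPM in control and 0.318 ± 0.195 CPM in neomycin samples (SD, n = 3 each), with a log2 fold change of -1.95 (SE 0.43, edgeR adjusted p = 0.00609). The antisense gene Gm13544 overlaps Acvr1c exons, so its reads are uncertain. The same limit holds for some genes below that passed by adjusted p, where another counted gene overlaps on the opposite strand. These are Acvr2a (Orc4), Ltbp2 (D030025P21Rik), Tgif2 (5430405H02Rik), Fn1 (Apol7d) and Bhlhe40 (0610040F04Rik). The type II receptor Acvr2a passed by adjusted p only (log2 fold change -0.26, adjusted p = 0.0241), which was lost without control replicate 2 (0.0909), neomycin replicate 2 (0.0543) or neomycin replicate 3 (0.116), and Acvr2b did not pass (-0.09, adjusted p = 0.826).

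The 2 follistatin-type genes went in opposite directions. Fst, which encodes follistatin, was at 106, 103 and 92.6 CPM in control and rose to 116, 116 and 139.8 CPM in neomycin samples (log2 fold change 0.30, SE 0.09, edgeR adjusted p = 0.024), under the fold threshold. The adjusted p of Fst was over 0.05 under library totals (0.0811) and without control replicate 2 (0.0615), control replicate 3 (0.0504) or neomycin replicate 3 (0.119). Fstl3, a related activin-binding protein, fell from 3.64 ± 0.185 to 2.21 ± 0.540 CPM (SD, n = 3 each, log2 fold change -0.72, edgeR adjusted p = 0.0271). The exons of Fstl3 overlap those of Prss57, and its call was lost without control replicate 1 or 2 or neomycin replicate 1 or 2, with adjusted p from 0.0716 to 0.0843. As a description, the level of Fst per kb was 12.3, 9.62 and 10.4 times the summed level of Inhba and Inhbb in control and 31.3, 25.6 and 41.8 times that sum in neomycin samples.

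**Figure D3:**
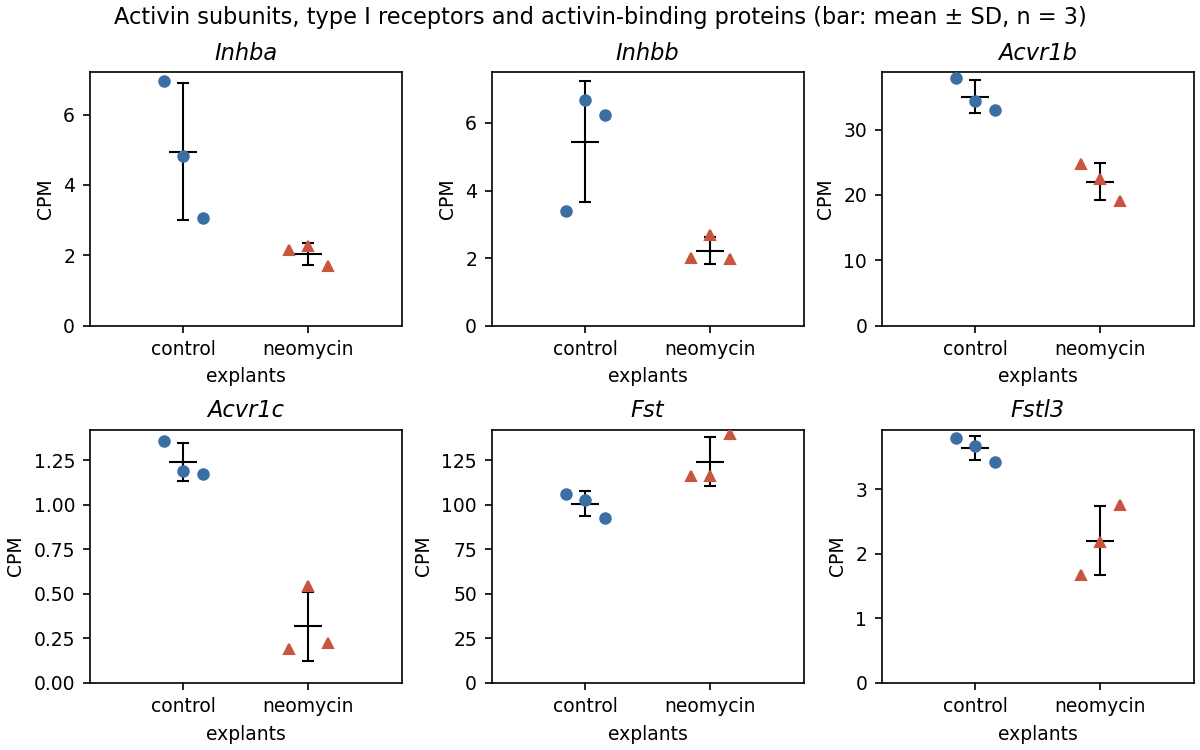
Level in CPM (y axis, each panel from 0) of the activin subunit genes Inhba and Inhbb, the type I receptor genes Acvr1b and Acvr1c, and the activin-binding genes Fst and Fstl3 in 3 control samples (circles) and 3 neomycin samples (triangles), with bars for mean ± SD. The groups do not overlap in any panel, and Fst is higher after neomycin where the other genes are lower. Among all genes tested, 43.5% had groups without overlap. Every gene shown but Fst was called, and Fst was named after its values were seen, so the lack of overlap here is no separate result. Inha and Acvr2b, which are not shown, have groups that overlap.

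Smad7 (chromosome 18, plus strand) encodes the inhibitory SMAD that is induced by TGF-β signaling and brings ubiquitin ligases to the receptor. Smad7 was at 36.5, 43.7 and 33.6 CPM in control and at 23.9, 25.03 and 27.3 CPM in neomycin samples. The groups did not overlap, and the lowest control sample was well above the highest neomycin sample. The log2 fold change was -0.58 (SE 0.10, 95% interval -0.80 to -0.36, edgeR adjusted p = 0.00184), the lowest adjusted p of the 10 genes. Its size crossed the fold threshold of 1.5 without control replicate 1 (-0.60), control replicate 3 (-0.64) or neomycin replicate 3 (-0.63) and under library totals (-0.65), and was smallest without control replicate 2 (-0.46, adjusted p = 0.0117).

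The genes most like Smad7 over the 6 samples were Samd4, Fhdc1 and Hgf, among 11778 genes with a mean of at least 5 CPM. Likeness was the root mean square difference of log2 level relative to the control mean, which was 0.0501 for Samd4, 0.0619 for Fhdc1 and 0.0643 for Hgf. Each was highest in control replicate 2, as Smad7 was, which describes how they were chosen and is no separate result.

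The list of inhibitors and feedback genes held 16 further genes, of which 15 were tested and Lefty2 was not. By adjusted p, 5 fell and 2 rose, against 29% of all genes (16.1% lower and 12.9% higher), and 2 (Fstl3 and Cd109) were called, a share of 13.3% against 8.84% of all genes. The median log2 fold change was -0.11 against -0.00 for all genes. Besides Smad7, the ubiquitin ligases that it recruits fell: Smurf1 by 0.48 and Smurf2 by 0.35 on the log2 scale (edgeR adjusted p = 0.000993 and 0.00337). Skil, which encodes the SMAD corepressor SnoN, fell by 0.49 (adjusted p = 0.00267), and Cd109, a TGF-β coreceptor that restrains signaling, fell by 0.80 (adjusted p = 0.0198). The call for Cd109 was lost without control replicate 2 (adjusted p = 0.0929) or neomycin replicate 3 (adjusted p = 0.0606). Other inhibitors did not pass, among them Bambi at 0.14 (adjusted p = 0.266), Ski at -0.13 (adjusted p = 0.198), Pmepa1 at -0.21 (adjusted p = 0.0768) and Strap, with the highest mean CPM of the list, at 0.19 (adjusted p = 0.0839). Tgif2, a corepressor, rose by 0.24 (adjusted p = 0.0223), but its adjusted p was 0.0766 under library totals, 0.0982 without control replicate 2, 0.0628 without neomycin replicate 2 and 0.0907 without neomycin replicate 3.

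Ltbp1 (chr17:75005568-75392512, plus strand), which tethers latent TGF-β to the matrix, was at 87.9, 76.6 and 68.1 CPM in control and at 88.1, 78.0 and 80.9 CPM in neomycin samples. The groups overlapped, with a log2 fold change of 0.09 (SE 0.09, 95% interval -0.11 to 0.29, edgeR adjusted p = 0.511). Ltbp1 was the member that moved most with the length correction, to 0.28 (adjusted p = 0.00985).

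Around Ltbp1, the list of 16 latency and matrix storage genes had 4 called genes, 25% against 8.84% of all genes, with 1 higher and 3 lower. By adjusted p, 2 rose and 7 fell, against 29% of all genes (16.1% lower and 12.9% higher), and the median log2 fold change was -0.23 against -0.00. Itgb8, an integrin subunit that activates latent TGF-β, was at 6.42, 6.08 and 3.24 CPM in control and at 2.00, 2.53 and 1.66 CPM in neomycin samples, without overlap (log2 fold change -1.35, SE 0.26, edgeR adjusted p = 0.00312). Lrrc32, which encodes the cell-surface docking protein GARP, fell from 18.5 ± 2.54 to 10.2 ± 0.780 CPM (SD, n = 3 each, log2 fold change -0.85, edgeR adjusted p = 0.000379). These encode proteins that hold or activate the latent complex at the cell surface, and the other integrin subunits were mixed, with Itgb6 higher by 0.23 (adjusted p = 0.0297) and Itgav lower by 0.32 on the log2 scale (adjusted p = 0.0154). The adjusted p of Itgb6 was 0.0909 under library totals and 0.0664 to 0.107 without control replicate 1 or 2 or any 1 neomycin sample, and that of Itgav was 0.0824 without control replicate 2 and 0.0734 without neomycin replicate 2.

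The small proteoglycans, which bind TGF-β in the matrix, also differed in direction. Dcn, decorin, had the highest mean CPM of the list and rose from 859, 742 and 919.7 CPM in control to 1328, 1303 and 1287 CPM in neomycin samples (log2 fold change 0.64, SE 0.10, edgeR adjusted p = 0.00064). Its fold dropped under the threshold without control replicate 2 (log2 fold change 0.56) and under library totals (0.57). Fmod, fibromodulin, fell from 15.6 ± 5.97 to 6.89 ± 1.27 CPM (SD, n = 3 each, log2 fold change -1.18, edgeR adjusted p = 0.00342), while Bgn, biglycan, did not pass (-0.26, adjusted p = 0.052). Thbs1, thrombospondin, an activator of latent TGF-β, fell by 0.53 on the log2 scale (adjusted p = 0.0106), with control samples at 748, 711 and 569.6 CPM and neomycin samples at 461, 392 and 556 CPM. Furin, the protease that cleaves the TGF-β propeptide, fell by 0.27 (adjusted p = 0.0122). Without neomycin replicate 2 the adjusted p was 0.0658 for Thbs1 and 0.0665 for Furin, without control replicate 2 it was 0.0542 for Thbs1, and without control replicate 1 it was 0.0501 for Furin.

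Of the 15 tested genes of the list of other ligands, receptors and SMADs (Nodal was not tested), 3 were called lower and 0 higher, 20% against 8.84%, and 6 passed by adjusted p, all lower, against 29% of all genes (16.1% lower and 12.9% higher). These were Inhbb, Acvr1b and Acvr1c, which passed both thresholds, and Acvr2a, Gdf11 and Smad3, which passed by adjusted p only. Gdf11, a ligand that signals through activin receptors, fell by 0.47 on the log2 scale (edgeR adjusted p = 0.0205), which was lost without control replicate 1 (0.0742), neomycin replicate 2 (0.0949) or neomycin replicate 3 (0.0813). The receptor-regulated SMAD gene Smad3 had the highest mean CPM of the list, not corrected for length, and fell from 70.0 ± 2.65 to 59.8 ± 3.94 CPM (SD, n = 3 each, log2 fold change -0.23, adjusted p = 0.0348), with an adjusted p of 0.0665 to 0.176 without control replicate 1 or 2 or neomycin replicate 2 or 3. The other receptor-regulated SMAD gene, Smad2 (-0.12, adjusted p = 0.208), and the common Smad4 (-0.13, adjusted p = 0.157) did not pass. Neither did Acvrl1 (-0.42, adjusted p = 0.0559) or Eng (-0.20, adjusted p = 0.0954), TGF-β family receptors of endothelium.

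Tgfbi (chr13:56609523-56639562, plus strand) encodes a secreted matrix protein that was named for its induction by TGF-β. Tgfbi was at 398, 331 and 311 CPM in control and at 384, 420.2 and 413 CPM in neomycin samples. Control replicate 1 lay among the neomycin samples, and the other 2 control samples lay below all of them. The log2 fold change was 0.23 (SE 0.10, 95% interval 0.02 to 0.44, edgeR adjusted p = 0.0942), the highest of the 10 genes. Its adjusted p was under the threshold without control replicate 1 (0.0141) and with DESeq2 (0.0437). It was 0.265 under library totals, 0.13 once a trend on exon length was removed, and 0.0837 to 0.261 when any other sample was left out.

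Genes known to respond to TGF-β were read as a list of 24, all tested. Of these 3 were called lower and 0 higher, 12.5% against 8.84% of all genes, and by adjusted p 8 fell and 1 rose, against 29% of all genes (16.1% lower and 12.9% higher). The list's median log2 fold change was -0.19 against -0.00. Col1a1, a chain of type I collagen, was at 34.2, 28.4 and 18.8 CPM in control and at 11.8, 10.9 and 12.8 CPM in neomycin samples (log2 fold change -1.20, SE 0.17, edgeR adjusted p = 0.000469). The other chain gene of that collagen, Col1a2, did not pass (0.06, adjusted p = 0.735) and was at 583 to 852 CPM in control samples.

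Matrix genes made up much of the rest of this list. Col3a1, its gene of highest mean CPM (not corrected for length), fell by 0.47 (edgeR adjusted p = 0.00364), Fn1, fibronectin, by 0.42 (adjusted p = 0.0102), Postn, periostin, by 0.49 (adjusted p = 0.0019) and Tnc, tenascin C, by 0.44 (adjusted p = 0.00151), all on the log2 scale. Adam12, a metalloprotease, was low at 1.15 ± 0.289 CPM in control and 0.536 ± 0.0929 CPM in neomycin samples (SD, n = 3 each, log2 fold change -1.10, adjusted p = 0.0353), and its call was lost when any sample other than control replicate 3 was left out (adjusted p from 0.0653 to 0.161) and with the length correction (adjusted p = 0.0797). Tgfb1i1, an adaptor of focal adhesions, rose by 0.31 (adjusted p = 0.0423), but its adjusted p was 0.129 under library totals and 0.0514 to 0.128 when any sample other than control replicate 1 was left out. Bhlhe40, a transcription factor, fell by 0.53 (adjusted p = 0.00308), and the adjusted p of Fn1 was 0.0605 without neomycin replicate 2. Other response genes did not pass, among them Ctgf (-0.30, adjusted p = 0.0529), Lox (-0.19, adjusted p = 0.196), Mmp2 (0.19, adjusted p = 0.125), Cdkn1a (0.02, adjusted p = 0.868) and Acta2 (-0.39, adjusted p = 0.0609). Removing the trend on exon length took the adjusted p over the threshold for Smad3 (0.0914), Acvr2a (0.0638), Furin (0.228), Itgav (0.27), Ltbp2 (0.109, from 0.0357) and Fn1 (0.0676), each of which had passed by adjusted p only. Ltbp2 also had an adjusted p of 0.098 to 0.156 without control replicate 1 or 2 or neomycin replicate 2 or 3.

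**Figure D4:**
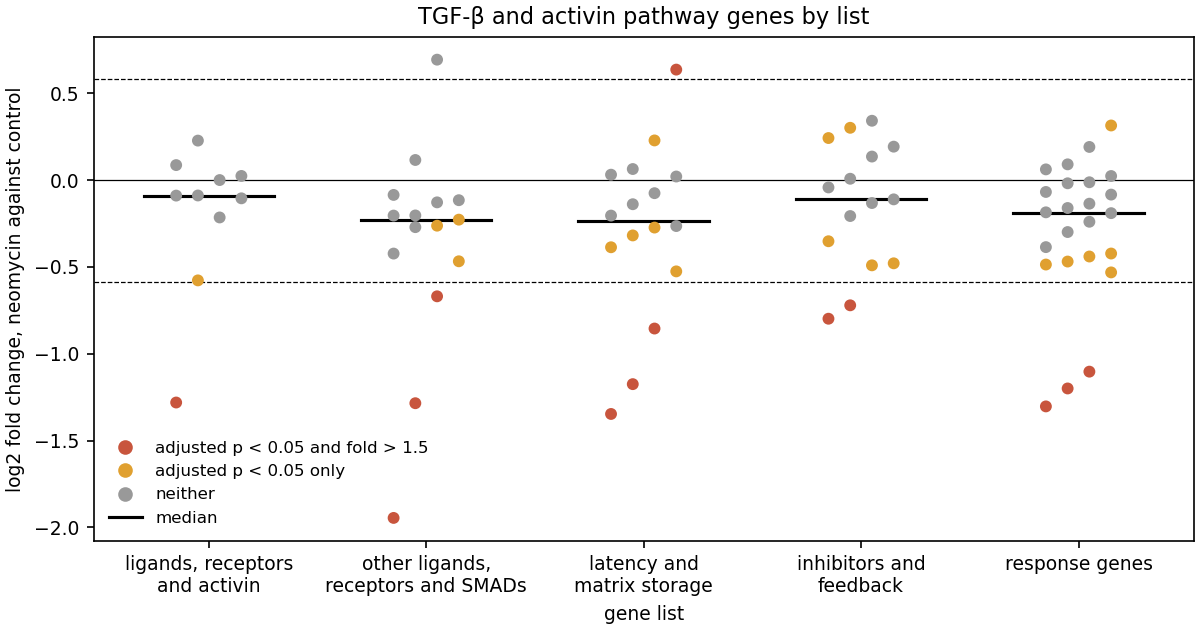
Log2 fold change after neomycin (y axis) of each tested gene in the 10 ligand, receptor and activin genes and in 4 further pathway lists, with a bar at each list's median and dashed lines at a fold change of 1.5. Red points pass both thresholds, orange points pass by adjusted p only and grey points pass neither, and the medians are -0.09, -0.23, -0.23, -0.11 and -0.19 from left to right.

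Marker genes of several cell types moved between the same groups, and their part in the results above was not tested. The counts below are of called genes, against 8.84% of all genes called, 6.6% as lower and 2.24% as higher. Neuron markers were lower in 4 of 7, with a summed level of 143 to 215 CPM in control and 115 to 119 CPM in neomycin samples. Among the control samples, the sums of neuron, pericyte, Schwann cell and mesenchyme markers were highest in replicate 1, where Inhba was highest. Those of supporting cell and melanocyte markers were highest in replicate 2, where Inhbb and Smad7 were highest. Those of HC, macrophage and endothelial markers were highest in replicate 3. Endothelial markers were lower in 7 of 10, with Pecam1 at 9.78 CPM in control and 1.49 CPM in neomycin samples, although the sum of the list, carried by Emcn, overlapped (312 to 354 against 298 to 351 CPM). Pericyte and smooth muscle markers were lower in 3 of 8 (173 to 213 against 131 to 143 CPM) and Schwann cell markers in 1 of 7 (505 to 570.1 against 473 to 491 CPM). Most of the pericyte sum was Pdgfrb, at a mean of 115 CPM in control and 89.1 CPM in neomycin samples, which was not called. Most of the Schwann cell sum was Sox10, at a mean of 355 CPM in control and 347 CPM in neomycin samples. Macrophage markers were higher in 5 of 10 (84.0 to 112 against 121 to 151 CPM). Mesenchyme and fibroblast markers were higher in 1 of 8 with overlapping sums (3163 to 3458 against 3374 to 3628 CPM). These sums were carried by Lum, at a mean of 2877 CPM in control and 3092 CPM in neomycin samples. By adjusted p, 2 of these markers rose and 1, Col6a1, fell (log2 fold change -0.48, edgeR adjusted p = 0.0236). Of 4 tested melanocyte markers, 0 were called. No marker was at 0 in all samples.

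**Figure D5:**
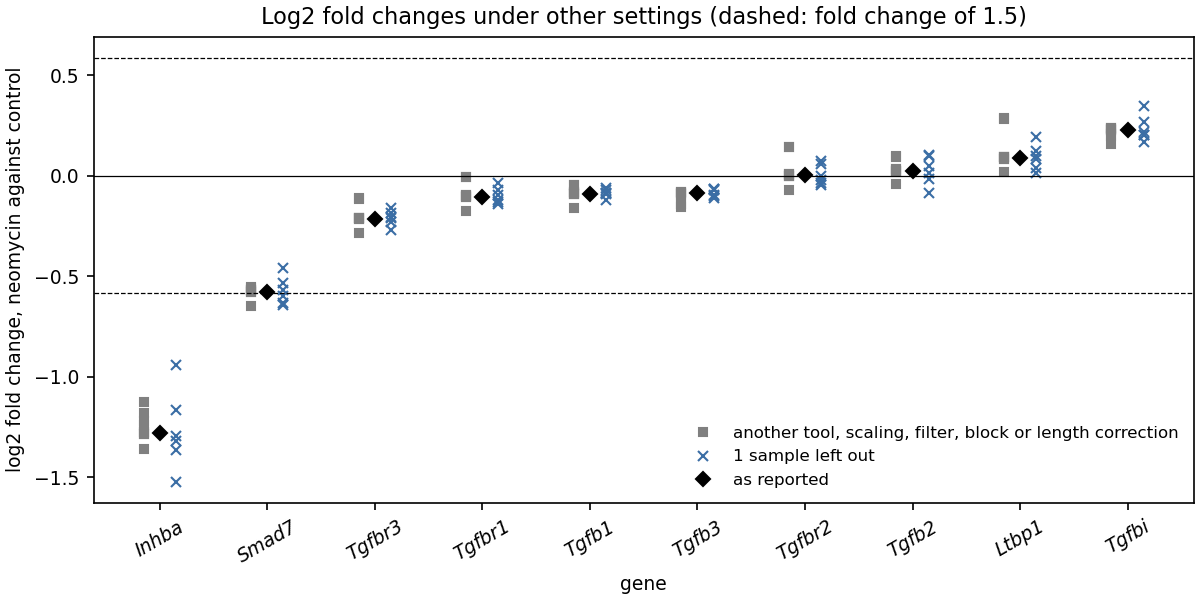
Log2 fold change of each of the 10 genes after neomycin (y axis) as reported (diamonds), under another tool, scaling, filter, replicate block or length correction (squares) and with 1 sample left out (crosses), with dashed lines at a fold change of 1.5. Inhba stays below the lower line throughout, Smad7 falls on both sides of it, and the signs of Tgfb2 and Tgfbr2 are not fixed.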

How the data were processed

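The authors called bases with Casava 1.8, trimmed reads with trimmomatic 0.23, aligned them to mm10 with Hisat2 with HTSeq for the counting, and they deposited raw counts per gene symbol. Strand setting, handling of multimapping reads and annotation date were not given in the sources used here. Every column belonged to a mapped sample (0 unused).

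Counts were scaled with TMM, filtered with filterByExpr and tested over all 15988 genes with edgeR 4.0.16 in R 4.3.3 (quasi-likelihood test, Benjamini-Hochberg adjustment). SEs were the absolute log2 fold change over the square root of F. Exon lengths were unions of exons in GENCODE M21 (23376 symbols matched directly and 669 through an older symbol). Figures used matplotlib 3.10.9 in Python 3.11.15.

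Alternatives were DESeq2 1.42.0, limma-voom (limma 3.58.1), other scalings, filters and thresholds, a replicate block, removal of a lowess trend on exon length (span 0.3), and each sample left out. The code was tested on simulated data. Replicates differed by more than sampling noise (mean chi-square per gene 13.7 to 46.7).

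The members and lists were chosen with earlier results of these data known. Named by rule were the 10 members, the called genes and the gene of highest mean CPM of each list, and the 3 genes most like the member of lowest adjusted p. Other list genes were named after their values were seen. The result of 1 called response gene is not reported here.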

Additional observations from a re-analysis of the deposited data

How the results depend on the processing

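Inhba was called lower in all 15 refits, with a log2 fold change of -1.52 to -0.94 with 1 sample left out. The count of called members was 2 in place of 1, with Smad7 added, under library totals, without a fold threshold, and without control replicate 1, control replicate 3 or neomycin replicate 3 (range 1 to 2 with 1 sample left out). Dropping the fold threshold gave 4629 called genes in all, 6 other ligands, receptors and SMADs, 9 latency genes, 7 inhibitors and 9 response genes. At an adjusted p under 0.01, 0 inhibitors were called. Removing the trend on exon length gave 1171 called genes in all in place of 1413, of which 1026 were called in both fits. With 1 sample left out, counts ran from 1037 to 1672 in all, 2 to 4 for other ligands, receptors and SMADs, 3 to 5 for latency genes, 0 to 2 for inhibitors (0 without control replicate 2) and 2 to 3 for response genes. The causes were not tested.

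Among the named genes, signs turned in Tgfb2 and Tgfbr2, both near 0. The log2 fold change of Tgfb2 was -0.0442 under library totals and -0.0849 to 0.10 with 1 sample left out. That of Tgfbr2 was -0.000969 with limma-voom, -0.0698 under library totals, -0.00232 with no filter, -0.00155 with at least 10 counts in every sample, and -0.0473 to 0.0731 with 1 sample left out. The difference in Tgfb2 share was -0.262 percentage points without neomycin replicate 1 (range -0.262 to 3.40). Library totals moved the median of all genes by -0.069 (log2). Acvr1b lost its fold call without neomycin replicate 3 (-0.57).

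Samples of the 2 groups shared replicate numbers. Deviations of same-numbered samples correlated at 0.165, 0.0264 and 0.0953 over genes. Control replicates 1 and 3 correlated best with the neomycin sample of the same number, and control replicate 2 with neomycin replicate 3 (0.0325). The number was not taken as a pairing, though a shared batch is not excluded. The SE of each of the 10 members was smaller with the number as a block, as for Tgfb2 (0.10 to 0.056) and Inhba (0.27 to 0.21). That of Acvr1c was larger (0.43 to 0.44). With the replicate number as a block, 1465 genes were called in place of 1413, and the counts of the members (1) and of the other lists (3, 4, 2 and 3) were as before. The adjusted p was then 0.0326 for Tgfbr3, 0.0499 for Tgfbi and 0.0175 for Strap, each over 0.05 without it. With the block and the length trend removed, Adam12 was no longer called (-0.89).

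With 3 samples per group, the exact permutation tests could not give a p below 0.1.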
